A study of Prunus persica and Prunus armeniaca with 129 samples.

Results

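Prupe.1G388300 is the Prunus gene whose closest Arabidopsis match is VERDANDI (VDD), and it is called VDD here. It was chosen by its identifier, which places it on chromosome 1 of the peach genome v2.0, as 1 of the 26872 genes counted in every library. Its level was followed in all 129 libraries of floral buds and flowers, 60 from apricot (Prunus armeniaca) and 69 from peach (Prunus persica).

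The apricot trees grew in France and comprised the early blooming genotypes A2137 (cultivar Bakour) and A1956 (Palsteyn) and the late blooming genotypes A660 (Bergeron) and A1267 (Badami). They were sampled after 0, 100 and 400 chill hours (CH, the hours of winter cold received), again after 800 CH, and once the sepals and later the petals could be seen (sepal visible and petal visible). At 800 CH the early blooming trees were in flower, so those libraries are of flowers, whereas the 800 CH libraries of the late blooming trees are of dormant buds. The peach trees grew in South Carolina and came from a cross of a low with a high chilling cultivar: the low chill genotypes A209 and A340 were sampled at 0, 100 and 600 CH and at pre-bloom, and the high chill genotypes A318 and A323 also at 1000 CH. No tree carried a transgene or received a treatment. Replicates are trees of the same clone, with 1 to 3 libraries per apricot group and 3 or 4 per peach group, so the spread within a group is not the spread between genotypes, and each bloom or chill class rests on 2 genotypes.

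In Arabidopsis, VDD is a transcription factor of the plant-specific B3 superfamily, in the branch named REM. It acts in the female gametophyte, the embryo sac inside the ovule, where its loss disturbs the identity of the synergid and antipodal cells and with it fertilization. Its gene is a direct target of MADS-domain complexes that contain SEEDSTICK (STK), the factor that, with relatives of AGAMOUS (AG), gives ovules their identity. In Prunus, flowers are formed inside the bud before winter and their ovules and pollen mature close to bloom. Endodormancy is the phase in which a bud needs more cold before it can grow, and ecodormancy is the phase that follows, in which only warmth is lacking.

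All levels are CPM, the counts of a gene relative to the size of its library, scaled by the trimmed mean of M-values (TMM), which corrects for library composition. Apricot libraries held 7593825 to 26253101 counts, of which 6 to 506 were of VDD. Peach libraries held 494799 to 26858662 counts, of which 0 to 393 were of VDD. In 10 peach libraries VDD had 3 counts or fewer, and 9 peach libraries were shallow, with fewer counts than 1/4 of the median peach total, 5 of them at 1000 CH, 3 at pre-bloom and 1 at 0 CH. A floor of 3 counts lay at 0.0974 to 0.433 CPM in the apricot libraries. In the peach libraries it lay at 0.0891 to 5.80 CPM, so single peach values are much less certain. The floral genes AG and APETALA3 (AP3), which specify carpels with stamens and petals with stamens, had more than 3 counts in all 129 libraries. STK had more than 3 counts in 53 of 60 apricot and 54 of 69 peach libraries.

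Beside each test of VDD below stands the share of all tested genes that the same comparison called at an adjusted p under 0.05, and a call of VDD should be read against it. The tests were edgeR's quasi-likelihood F tests with Benjamini-Hochberg adjustment over all tested genes of a species, and each change is a log2 fold change with its standard error (SE). Tests between bloom or chill classes took each library, not each genotype, as a replicate of its class. Their p-values therefore do not measure the spread between genotypes of a class. The study described the course of VDD in these same libraries, during chill accumulation as well as into ecodormancy, so no p-value here is independent evidence of that course. Only values are given for 6 comparisons that set ecodormant against endodormant buds, as a class or within a genotype, since the study described VDD across that transition. The same holds for 2 comparisons that have a single library on one side. A comparison of early with late blooming buds in which only A2137 was ecodormant was tested, so its p-value partly repeats that transition. The fall in A318 at its last chill hour count was also tested. The paper calls those A318 buds putatively ecodormant, although they clustered nearer to endodormant ones. For the 6, the share printed is that of genes whose libraries did not overlap between the groups. In whole buds, fewer cells that express VDD and less VDD RNA per cell cannot be told apart.

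In apricot, VDD was high in buds early in winter and low in all buds and flowers sampled once sepals were visible. The highest group was A1267 at 400 CH, with a mean of 27.9 ± 0.392 CPM (SD, n = 3), and the lowest was A1267 at petal visible, with 0.937 ± 0.262 CPM (SD, n = 3). Across dormant, growing and flowering groups, each genotype's highest mean exceeded its lowest 29.7-fold in A1267, 22.01-fold in A1956, 11.8-fold in A660 and 7.05-fold in A2137. When the 24 apricot groups were ordered by mean, 19 of the 23 neighbouring pairs overlapped in their libraries. The 4 gaps lay below A1267 at 400 CH, below A1267 at 100 CH, below A1267 at 800 CH and below A2137 at 400 CH.

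**Figure D1:**
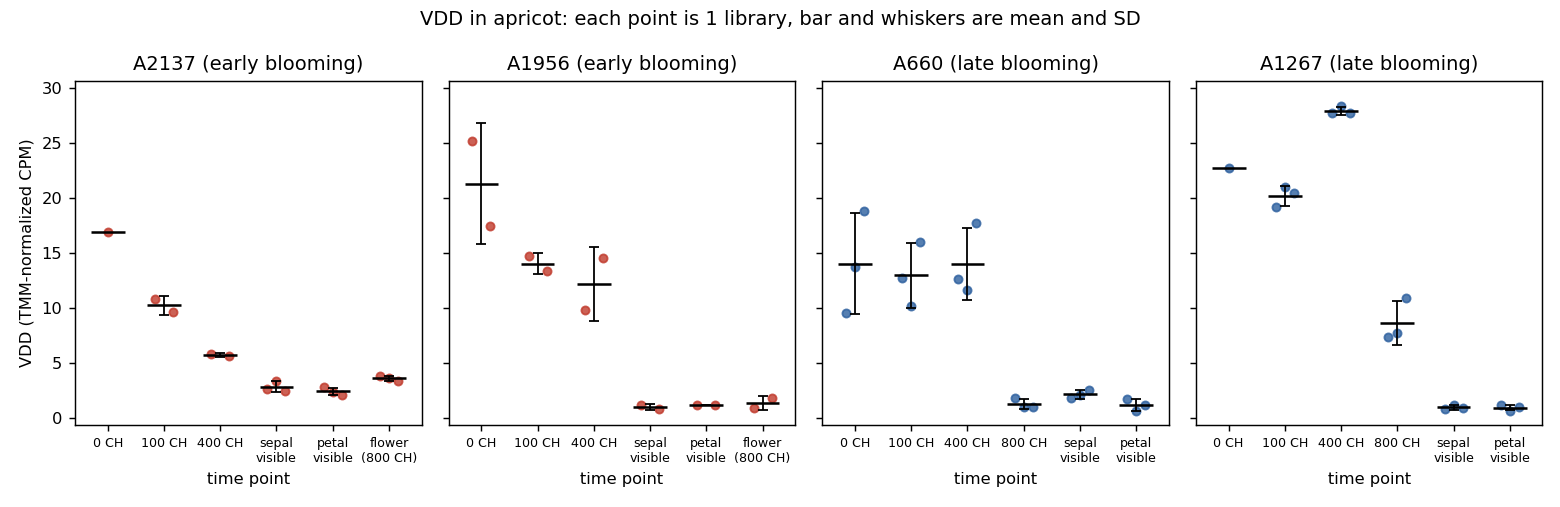
VDD level in TMM-normalized CPM on a linear axis for the 4 apricot genotypes, early blooming ones at the left, against the time points in order. Each point is 1 library, and bars with whiskers are the mean and SD of a group (no SD where there is 1 library). Buds up to 400 CH lie at 5.59 CPM or above, and sepal and petal visible buds and flowers lie between 0.652 and 3.78 CPM.

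A2137, an early blooming genotype, had 16.9 CPM in its single library at 0 CH, 10.8 and 9.60 CPM at 100 CH, and 5.84 and 5.59 CPM at 400 CH. Its buds then had 2.60, 3.38 and 2.46 CPM at sepal visible, 2.79, 2.31 and 2.09 CPM at petal visible, and 3.78, 3.59 and 3.38 CPM in flowers. Each dormant group lay below the one before it, and the flowers lay above every petal visible library. The difference between 100 and 0 CH was -0.73 (SE 0.33), with no test since 0 CH had 1 library. The difference between 400 and 100 CH was -0.83 (SE 0.28), given without a test, and 77.1% of all genes also had libraries that did not overlap between those 2 groups. VDD fell at sepal visible against 400 CH by 1.02 on the log2 scale (SE 0.27, adjusted p = 0.00257), in a comparison in which 37.3% of genes were called. Between petal visible and sepal visible it differed by -0.25 (SE 0.27, adjusted p = 0.472, 44.8% of genes called). Flowers were higher than petal visible buds by 0.60 (SE 0.26, adjusted p = 0.0489, 55.6% of genes called), a call that was lost when any of 5 of the 6 libraries was left out, namely the 3 flower libraries and petal visible replicates 2 and 3 (adjusted p up to 0.176).

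A1956, the other early blooming genotype, had 25.1 and 17.4 CPM at 0 CH, 14.7 and 13.3 CPM at 100 CH, and 9.81 and 14.5 CPM at 400 CH. It then had 1.15 and 0.779 CPM at sepal visible, 1.15 and 1.14 CPM at petal visible, and 0.923 and 1.81 CPM in flowers. The dormant and the later libraries formed ranges that were far apart, with no library between 1.81 and 9.81 CPM. The step between 100 and 0 CH was -0.60 (SE 0.27, adjusted p = 0.116, 21.7% of genes called), and that between 400 and 100 CH was -0.20 (SE 0.28, adjusted p = 0.832, 3.06% called). At sepal visible VDD fell to 0.0812 of its 400 CH level, a log2 change of -3.62 (SE 0.34, adjusted p = 1.59e-11, 47.2% called). Petal visible against sepal visible gave 0.22 (SE 0.39, adjusted p = 0.692, 42.4% called), and flowers against petal visible gave 0.30 (SE 0.40, adjusted p = 0.644, 24.8% called).

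A660, late blooming, had 9.55, 13.7 and 18.8 CPM at 0 CH, 12.7, 10.2 and 16.01 CPM at 100 CH, and 12.6, 11.6 and 17.7 CPM at 400 CH. At 800 CH it had 1.80, 0.990 and 1.01 CPM, and it then had 1.77, 2.07 and 2.57 CPM at sepal visible and 1.73, 0.661 and 1.17 CPM at petal visible. The first 3 time points overlapped throughout, and every 800 CH library lay far below them. The differences were -0.11 (SE 0.22, adjusted p = 0.788, 27.9% of genes called) between 100 and 0 CH and 0.11 (SE 0.23, adjusted p = 0.797, 21.6% called) between 400 and 100 CH. Between 800 and 400 CH the level in the 800 CH buds was 0.0929 of that at 400 CH, a log2 difference of -3.43 (SE 0.28) given without a test, and 38.1% of all genes had libraries that did not overlap there. At sepal visible VDD was higher than at 800 CH by 0.73 (SE 0.30, adjusted p = 0.0395, 56.3% called), although sepal visible replicate 1 lay below 800 CH replicate 1. That call was lost without 800 CH replicate 2 or 3 or sepal visible replicate 2 or 3 (adjusted p up to 0.182). Petal visible buds were lower than sepal visible buds by -0.81 (SE 0.31, adjusted p = 0.0288, 44.2% called), which was lost without sepal visible replicate 3 or petal visible replicate 2 or 3 (adjusted p up to 0.168).

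A1267, also late blooming, had 22.7 CPM in its single 0 CH library, 19.1, 20.9 and 20.4 CPM at 100 CH, and 27.6, 28.3 and 27.6 CPM at 400 CH. It had 7.33, 7.68 and 10.9 CPM at 800 CH, 0.821, 1.18 and 0.861 CPM at sepal visible, and 1.17, 0.652 and 0.993 CPM at petal visible. Its level at 800 CH therefore stood between the earlier buds and the sepal visible ones, and no libraries of those stages overlapped. The step between 100 and 0 CH was -0.17 (SE 0.31), not tested because of the single library. All 3 libraries at 400 CH lay above those at 100 CH, yet the difference of 0.47 missed the threshold (SE 0.22, adjusted p = 0.142, 20.4% of genes called). VDD fell at 800 CH to 0.311 of its 400 CH level, a change of -1.68 (SE 0.23, adjusted p = 3.15e-07, 29.5% called). At sepal visible it fell again, to 0.112 of its 800 CH level, a change of -3.16 (SE 0.28, adjusted p = 9.74e-13, 62.7% called). Petal visible against sepal visible gave -0.05 (SE 0.35, adjusted p = 0.944, 33% called).

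The study placed A2137 at 400 CH and A660 at 800 CH in ecodormancy and the other dormant apricot buds in endodormancy. VDD had 0.990 to 5.84 CPM, with a median of 1.80 CPM, in the 5 ecodormant libraries, and 7.33 to 28.3 CPM, with a median of 14.6 CPM, in the 28 endodormant ones. The ranges did not touch, the difference was -2.35 (SE 0.39), and 2.75% of all genes had libraries that did not overlap between these stages. This comparison is one the study made for VDD and carries no test here. Within ecodormancy, A2137 stood at 5.72 ± 0.180 CPM (SD, n = 2) and A660 at 1.27 ± 0.459 CPM (SD, n = 3).

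Early and late blooming apricots were then compared at matched chill hours or stages. At 0 CH the 3 early libraries had 16.9 to 25.1 CPM and the 4 late ones 9.55 to 22.7 CPM, a difference of 0.29 (SE 0.52, adjusted p = 1, 0.243% of genes called). At 100 CH the 4 early libraries had 9.60 to 14.7 CPM and the 6 late ones 10.2 to 20.9 CPM, a difference of -0.45 (SE 0.45, adjusted p = 0.608, 8.74% called). At 400 CH VDD was lower in early than in late blooming buds, with 8.94 ± 4.19 CPM (SD, n = 4) against 20.9 ± 7.89 CPM (SD, n = 6). The difference was -1.23 (SE 0.46, adjusted p = 0.0422, 24.7% called), but the ranges overlapped. Of these buds only those of A2137, with 5.59 to 5.84 CPM, were placed in ecodormancy, so bloom class and dormancy stage are mixed. The early A1956 (9.81 to 14.5 CPM) overlapped the late A660 (11.6 to 17.7 CPM), whereas A1267 had 27.6 to 28.3 CPM. The part of dormancy stage in this difference was not tested. The call was lost without either A2137 library, without A1956 replicate 1 or without any 1 of the 3 A1267 libraries (adjusted p up to 0.159). With groups formed by genotype and time, leaving out any 1 of the 4 genotypes gave differences of -0.70 to -1.78.

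At 800 CH early flowers were set against late dormant buds, so bloom class and organ cannot be told apart. The early flowers had 2.70 ± 1.26 CPM (SD, n = 5) and the late buds 4.95 ± 4.24 CPM (SD, n = 6), a difference of -0.87 (SE 0.43, adjusted p = 0.0957, 46.1% of genes called). The late class held A660 with a mean of 1.27 CPM and A1267 with 8.64 CPM. With groups formed by genotype and time, the difference without A1267 turned to 0.80 (adjusted p = 0.0192). At sepal visible the difference between early and late buds was 0.42 (SE 0.44, adjusted p = 0.622, 6.1% called), and at petal visible it was 0.82 (SE 0.46, adjusted p = 0.294, 9.55% called). The step between petal and sepal visible differed between early and late trees by 0.40 (SE 0.64, adjusted p = 0.939, 0.124% called). Between the flowers of the early genotypes, VDD was higher in A2137 (3.59 ± 0.199 CPM, SD, n = 3) than in A1956 (1.37 ± 0.630 CPM, SD, n = 2), by 1.34 (SE 0.33, adjusted p = 0.00111, 40.2% called). Without A1956 flower replicate 1 that difference was 0.995, with an adjusted p of 0.0554.

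In peach, VDD was highest in high chill buds at 600 CH and lowest in 3 of the 4 genotypes at pre-bloom. The means at 600 CH were 14.2 ± 2.53 CPM in A318 (SD, n = 4) and 13.8 ± 8.03 CPM in A323 (SD, n = 3), and the libraries of these 2 groups lay above all other peach libraries. The ratio of highest to lowest mean was 18.9-fold in A318, 17.1-fold in A323, 6.17-fold in A340 and 2.11-fold in A209. Among the 18 peach groups ordered by mean, 16 of the 17 neighbouring pairs overlapped, and the gap below A323 at 600 CH was the exception.

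**Figure D2:**
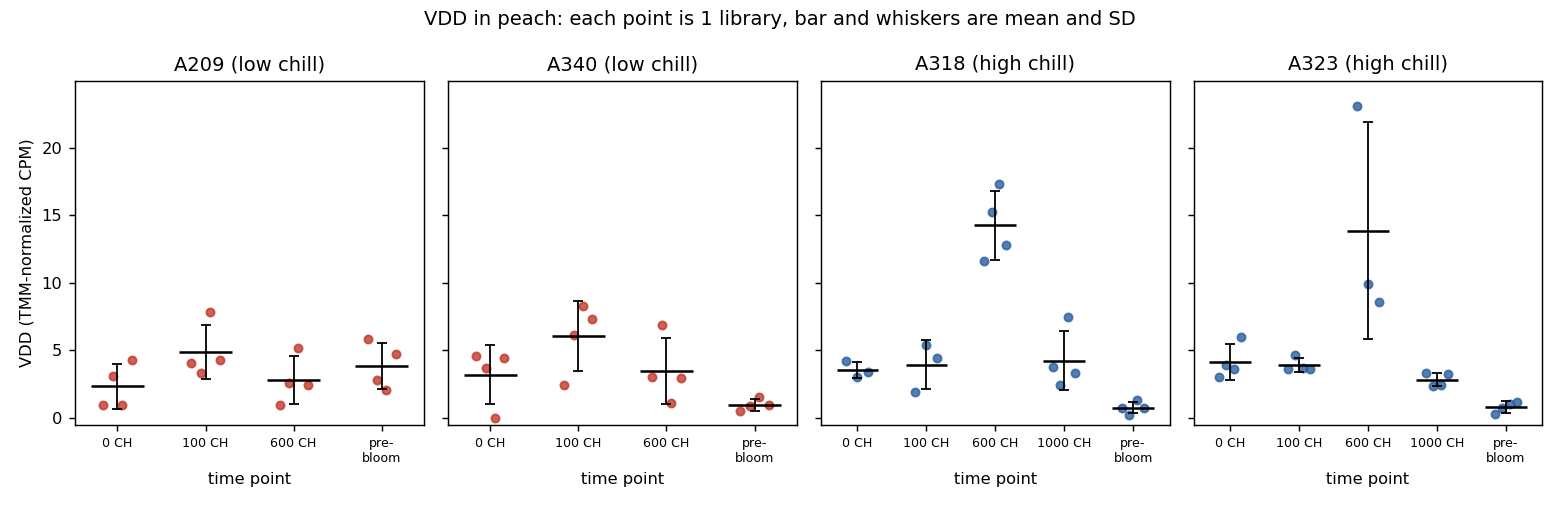
VDD level in TMM-normalized CPM on a linear axis for the 4 peach genotypes, low chill ones at the left, against the time points in order. Each point is 1 library, and bars with whiskers are the mean and SD of a group. High chill buds at 600 CH stand between 8.54 and 23.1 CPM, above all other libraries.

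A318, high chill, had 4.23, 3.03 and 3.40 CPM at 0 CH and 1.91, 5.40 and 4.47 CPM at 100 CH. At 600 CH its libraries had 11.6, 15.2, 17.3 and 12.8 CPM, at 1000 CH 3.74, 2.45, 7.43 and 3.30 CPM, and at pre-bloom 0.730, 0.244, 1.29 and 0.745 CPM. The 600 CH libraries stood above, and the pre-bloom libraries below, all others of this genotype. The step between 100 and 0 CH was 0.20 (SE 0.53, adjusted p = 0.851, 15.5% of genes called). VDD rose at 600 CH to 3.51 times its level at 100 CH, a change of 1.81 (SE 0.50, adjusted p = 0.00979, 12.6% called), and without 100 CH replicate 2 it was 1.53 with an adjusted p of 0.0714. It fell at 1000 CH to 0.295 of its 600 CH level, a change of -1.76 (SE 0.52, adjusted p = 0.00821, 31% called). Of the 4 libraries at 1000 CH, 3 held only 2, 3 and 12 VDD counts, and without the deepest, replicate 4, the change was -1.57 with an adjusted p of 0.0594. At pre-bloom it fell further, to 0.18 of its 1000 CH level, a change of -2.47 (SE 0.57, adjusted p = 0.000778, 25.7% called).

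A323, the other high chill genotype, had 3.04, 3.91, 3.59 and 6.01 CPM at 0 CH and 3.64, 4.68, 3.69 and 3.59 CPM at 100 CH. It had 23.1, 9.90 and 8.54 CPM at 600 CH, 3.30, 2.37, 2.42 and 3.25 CPM at 1000 CH, and 0.262, 0.726, 1.04 and 1.20 CPM at pre-bloom. The pattern by time matched that of A318, with a peak at 600 CH and the lowest libraries at pre-bloom. Between 100 and 0 CH the difference was -0.11 (SE 0.45, adjusted p = 0.897, 21.6% of genes called). At 600 CH VDD rose to 3.53 times its 100 CH level, a change of 1.82 (SE 0.47, adjusted p = 0.00515, 13.5% called), and without 600 CH replicate 1, at 23.1 CPM, it was 1.23 with an adjusted p of 0.138. It fell at 1000 CH to 0.205 of the 600 CH level, a change of -2.29 (SE 0.52, adjusted p = 0.00108, 17.4% called). At pre-bloom it fell to 0.305 of the 1000 CH level, a change of -1.72 (SE 0.58, adjusted p = 0.0247, 20.9% called). That last call was lost without 1000 CH replicate 1 or pre-bloom replicate 1 or 2 (adjusted p up to 0.0655).

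A209, low chill, had 0.952, 3.09, 0.966 and 4.28 CPM at 0 CH, 4.07, 3.34, 7.85 and 4.30 CPM at 100 CH and 0.939, 2.57, 5.20 and 2.43 CPM at 600 CH. At pre-bloom it had 5.80, 2.78, 2.08 and 4.72 CPM, of which the first rests on 3 counts of 494799, with an exact 95% Poisson interval of 1.20 to 17.0 CPM that covers counting error only. At 0 CH, the 0.952 and 0.966 CPM rest on 2 counts each, and both enter the lowest group mean of A209, 2.32 CPM. Every pair of neighbouring time points overlapped. The step between 100 and 0 CH was 0.86 (SE 0.47, adjusted p = 0.244, 14% of genes called). The difference between 600 and 100 CH was -0.76 (SE 0.46), without a test, and 25.5% of genes had libraries that did not overlap. The step between pre-bloom and 600 CH was 0.24 (SE 0.50, adjusted p = 0.799, 15.8% called).

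A340, the other low chill genotype, had 4.60, 3.72, 0 and 4.46 CPM at 0 CH, where the library at 0 held 1615959 counts in all, so that 3 counts would be 1.98 CPM and the exact 95% Poisson interval reaches 2.43 CPM. It had 2.41, 6.16, 8.29 and 7.31 CPM at 100 CH, 2.99, 6.86, 1.10 and 2.91 CPM at 600 CH, and 0.510, 0.873, 1.57 and 0.963 CPM at pre-bloom. Values at pre-bloom were low but rest on 1, 2, 8 and 2 counts. The step between 100 and 0 CH was 0.78 (SE 0.48, adjusted p = 0.274, 16.4% of genes called). Between 600 and 100 CH it was -0.80 (SE 0.44), without a test, and 36.9% of genes had libraries that did not overlap. VDD fell at pre-bloom against 600 CH by 1.69 on the log2 scale (SE 0.59, adjusted p = 0.0316, 21.5% called). That call was lost without 600 CH replicate 2 or pre-bloom replicate 1, 2 or 4 (adjusted p up to 0.189), and without the shallow libraries the change was -1.38 (adjusted p = 0.193).

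**Figure D3:**
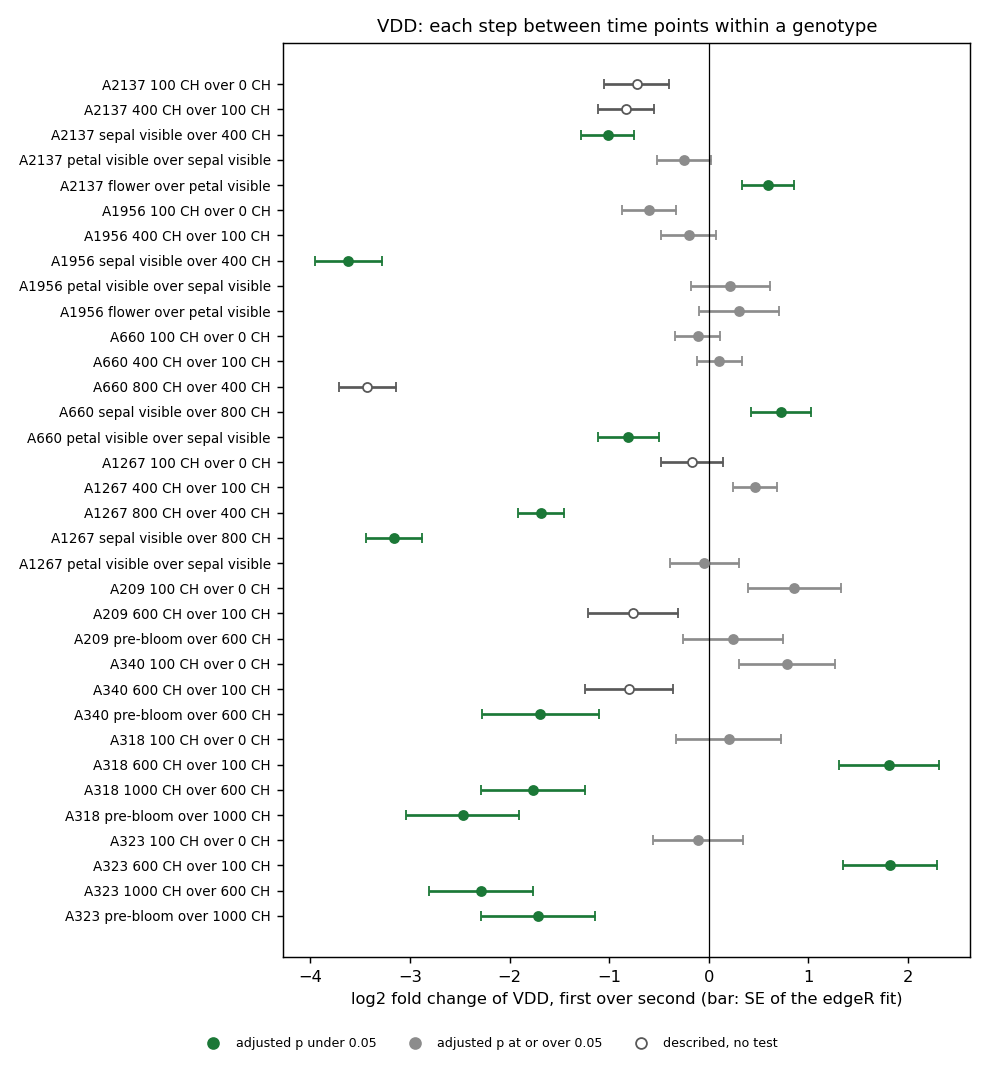
Log2 fold change of VDD between each time point and the one before it within each apricot and peach genotype, with bars of 1 SE. Green points have an adjusted p under 0.05, grey points do not, and open points were described without a test. The falls into sepal visible in A1267 (-3.16) and A1956 (-3.62) and the rises at 600 CH in A318 (1.81) and A323 (1.82) can be seen.

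Low and high chill peaches were compared at each shared chill hour count and at pre-bloom. At 0 CH the difference was -0.34 (SE 0.36, adjusted p = 0.838, 1.18% of genes called), and at 100 CH it was 0.50 (SE 0.34, adjusted p = 0.448, 4.89% called). At 600 CH VDD had 0.939 to 6.86 CPM in the 8 low chill libraries and 8.54 to 23.1 CPM in the 7 high chill ones. The level in low chill buds was 0.228 of that in high chill buds, a difference of -2.13 (SE 0.34), described without a test, and 15.7% of genes had libraries that did not overlap there. The 2 low chill genotypes differed at 600 CH by -0.25, A209 over A340 (SE 0.45, adjusted p = 0.911, 1.28% called). The step between 100 and 0 CH differed between the classes by 0.84 (SE 0.49, adjusted p = 0.743, 0.293% called). At 1000 CH A318 and A323 differed by 0.57 (SE 0.57, adjusted p = 0.663, 1% called).

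At pre-bloom VDD was 2.98 times higher in low chill than in high chill buds, a difference of 1.58 (SE 0.40, adjusted p = 0.00159, 33.5% of genes called). Pre-bloom buds were sampled in February from low chill and in March from high chill trees, so chill class and date cannot be told apart. Libraries ranged over 0.510 to 5.80 CPM in low chill buds and over 0.244 to 1.29 CPM in high chill buds. The difference lay in A209, whose pre-bloom libraries had 2.08 to 5.80 CPM, whereas those of A340 (0.510 to 1.57 CPM) overlapped the high chill ones. With groups formed by genotype and time, the difference was 0.43 without A209 (adjusted p = 0.626) and 1.18 without A318 (adjusted p = 0.107). Of the 42 comparisons tested, VDD was called in 17, higher in 6 and lower in 11.

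**Figure D4:**
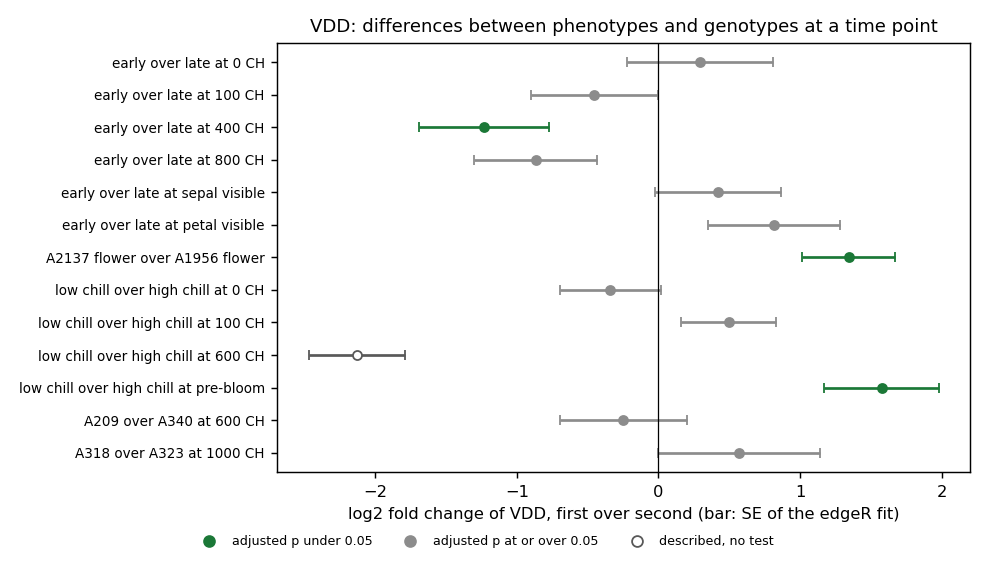
Log2 difference of VDD between early and late blooming apricots, between low and high chill peaches and between single genotypes at matched chill hours or stages, with bars of 1 SE. Green points have an adjusted p under 0.05, grey points do not, and the open point was described without a test. Early apricots lie below late ones at 400 CH (-1.23), where only A2137 was placed in ecodormancy. Low chill peaches lie below high chill ones at 600 CH (-2.13) and above them at pre-bloom (1.58).

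Markers of another bud tissue moved with some of these differences. MALE STERILITY 2 (MS2) and LESS ADHESIVE POLLEN 6 (LAP6) act in the anther tapetum, which builds the pollen wall. MS2 averaged 826 ± 94.3 CPM in A2137 at 400 CH (SD, n = 2) and 280 ± 242 CPM in A660 at 800 CH (SD, n = 3), against at most 2.28 CPM as a mean in any other apricot group. It averaged 477 ± 264 CPM in A209 and 225 ± 143 CPM in A340 at 600 CH (SD, n = 4 each), against 3.54 ± 2.82 CPM in A318 (SD, n = 4) and 1.07 ± 0.435 CPM in A323 (SD, n = 3). LAP6 averaged 751 ± 3.61 CPM in A2137 at 400 CH and 196 ± 176 CPM in A660 at 800 CH. Those groups are the ecodormant apricot groups, in which VDD lay below the endodormant ones, and the low chill groups, in which it lay below the high chill ones. In 2 libraries of those groups the markers were low. A660 replicate 3 at 800 CH had 7.79 CPM of MS2 and 14.6 CPM of LAP6, against 362 and 472 CPM of MS2 in the others, and its VDD level of 1.01 CPM lay within the range of its group. A340 replicate 1 at 600 CH had 14.2 CPM of MS2 and 0.878 CPM of LAP6, and its VDD level of 2.99 CPM lay inside the 1.10 to 6.86 CPM of the others. At other steps the markers moved with VDD, against it, or without passing the test. At 600 against 100 CH, where VDD rose, MS2 was 0.34 in A318 (adjusted p = 0.872) and -0.85 in A323 (adjusted p = 0.619). LAP6 was 0.717 in A318 (adjusted p = 0.733) and -1.025 in A323 (adjusted p = 0.613). At 1000 against 600 CH, where VDD fell, MS2 rose by 3.32 in A318 (adjusted p = 0.00282) and by 4.24 in A323 (adjusted p = 0.00119), and LAP6 rose by 3.98 in A323 (adjusted p = 0.0168) and was 1.97 in A318 (adjusted p = 0.134). At pre-bloom, where VDD fell, MS2 fell with it, by 3.85 on the log2 scale in A318 (adjusted p = 0.000533), by 2.98 in A323 (adjusted p = 0.00836) and by 3.20 in A340 (adjusted p = 0.00186). LAP6 was -3.65 in A318 (adjusted p = 0.00963), -2.68 in A323 (adjusted p = 0.0633) and -4.92 in A340 (adjusted p = 0.000798). In low against high chill buds at pre-bloom, MS2 was higher by 3.39 (adjusted p = 1.41e-05) and LAP6 by 2.06 (adjusted p = 0.0326), as was VDD. At sepal visible, MS2 fell by 10.90 on the log2 scale against 400 CH in A2137 (adjusted p = 5.18e-13), while in A1267 it rose by 4.24 against 800 CH (adjusted p = 0.002), and VDD fell in both. In A1956, where VDD also fell, MS2 was 2.46 against 400 CH (adjusted p = 0.279), while LAP6 rose by 4.23 (adjusted p = 0.0434). In A660, where VDD was higher than at 800 CH, MS2 was -8.48 (adjusted p = 8.11e-12). LAP6 at these sepal visible steps was -11.09 in A2137 (adjusted p = 8.48e-15), 3.23 in A1267 (adjusted p = 0.000197) and -8.21 in A660 (adjusted p = 2.17e-13). In A209 at pre-bloom against 600 CH, MS2 was -4.40 (adjusted p = 0.00012) and LAP6 -6.80 (adjusted p = 5.74e-05). VDD differed there by 0.24 (adjusted p = 0.799). The part that the amount of anther tissue has in the VDD differences was not tested beyond these values.

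STK, whose protein acts upstream of VDD in Arabidopsis ovules, was low in most apricot groups in which VDD was high. Its means were 0.969 CPM or lower in dormant apricot buds other than A2137 at 400 CH (7.94 ± 0.895 CPM, SD, n = 2) and A660 at 800 CH (2.07 ± 1.99 CPM, SD, n = 3). They were 7.43 to 13.03 CPM at sepal visible, 8.42 to 22.1 CPM at petal visible, and 28 ± 7.63 CPM in A1956 flowers (SD, n = 2) and 70.9 ± 17.9 CPM in A2137 flowers (SD, n = 3). At sepal visible STK rose in A1267 by 3.31 against 800 CH (SE 0.51, adjusted p = 3.72e-07) and in A1956 by 3.57 against 400 CH (SE 0.60, adjusted p = 4.71e-06), where VDD fell. In A2137 it was 0.71 against 400 CH (SE 0.44, adjusted p = 0.21). In A660, where VDD also was higher at sepal visible than at 800 CH, STK rose too, by 1.72 (SE 0.45, adjusted p = 0.00123). In early blooming buds at 400 CH it was higher than in late blooming ones by 3.35 (SE 0.60, adjusted p = 4.15e-05), where VDD was lower. Across the 24 apricot groups the correlation of mean log2 CPM with VDD was r = -0.80, and across the 18 peach groups it was -0.31, both as a description over groups that share genotypes.

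**Figure D5:**
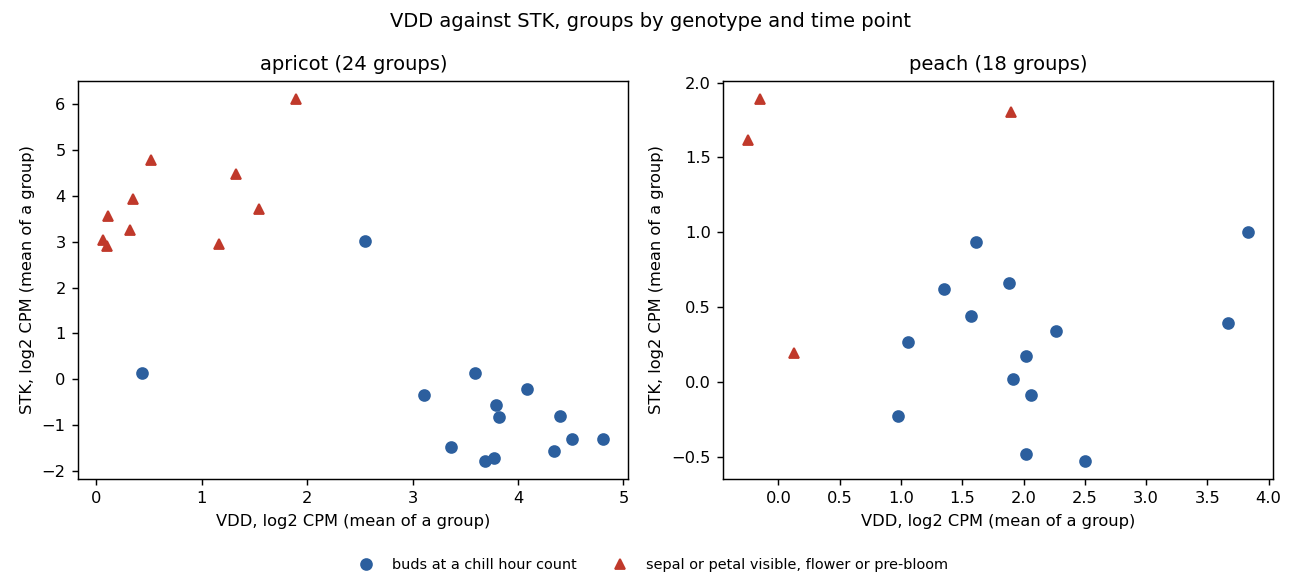
Mean log2 CPM of STK (vertical axis) against that of VDD (horizontal axis) in the 24 apricot groups and the 18 peach groups. Circles are buds at a chill hour count, and triangles are sepal or petal visible buds, flowers or pre-bloom buds. In apricot the triangles lie at high STK and low VDD (r = -0.80 over the groups), and in peach the groups are less ordered (r = -0.31).

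In A2137 flowers both STK and VDD were higher than in the groups they were set against. These flowers exceeded A2137 petal visible buds in STK by 1.68 (SE 0.39, adjusted p = 0.000281), and exceeded A1956 flowers by 1.34 (SE 0.44, adjusted p = 0.0136), where VDD was also higher. AG did not move with them. It was -0.69 against petal visible buds (SE 0.25, adjusted p = 0.0193) and -0.46 against A1956 flowers (SE 0.28, adjusted p = 0.191). At 600 CH against 100 CH in high chill peach, STK differed by 1.18 in A318 (SE 0.85, adjusted p = 0.403) and by 1.27 in A323 (SE 0.80, adjusted p = 0.323), so neither passed the test where VDD rose. AG rose at those steps, by 1.18 in A318 (SE 0.30, adjusted p = 0.00445) and by 1.47 in A323 (SE 0.29, adjusted p = 0.000179), and so did AP3, by 0.74 (SE 0.18, adjusted p = 0.00291) and 1.04 (SE 0.18, adjusted p = 1.52e-05). In low chill peach at the same step, AG was 0.96 in A209 and 1.61 in A340, and AP3 was 0.56 and 0.64. VDD was -0.76 in A209 and -0.80 in A340 there, all given without a test. In apricot AG rose into sepal visible in all 4 genotypes, by 1.14 to 2.08 (adjusted p of 0.00186 or less). AP3 fell to 6.61 ± 3.57 CPM in A2137 flowers (SD, n = 3), against 257 ± 29.6 CPM at petal visible (SD, n = 3), and had 102 ± 0.552 CPM in A1956 flowers against 285 ± 3.57 CPM at petal visible (SD, n = 2 each). The flower libraries of the 2 genotypes thus differed in this petal and stamen marker by -3.96 (SE 0.33, adjusted p = 1.14e-12), and its part in the VDD difference between them was not tested.

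INNER NO OUTER (INO), which is needed for the outer coat of the ovule, had more than 3 counts in 28 of 60 apricot libraries and in 6 of 69 peach libraries, and in peach it was too low to test. Into sepal visible it rose by 4.39 in A1267 (SE 0.74, adjusted p = 7.79e-06), by 6.19 in A1956 (SE 1.17, adjusted p = 7.34e-05) and by 2.92 in A660 (SE 0.71, adjusted p = 0.00097), and it was 0.83 in A2137 (SE 0.46, adjusted p = 0.162). These large changes come from counts of at most 20. In A2137 flowers INO was -0.47 against petal visible buds (SE 0.41, adjusted p = 0.346) and 0.09 against A1956 flowers (SE 0.51, adjusted p = 0.913). AGL80, a MADS gene of the central cell of the embryo sac, had more than 3 counts in 1 of 60 apricot and 15 of 69 peach libraries and was not tested. Whether an embryo sac was present in these buds and flowers cannot be told from such counts.

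VDD was set beside 2 lists of related genes. Most of their members come from an apricot module that the study chose on these libraries, so their direction there is not independent evidence. The 14 other B3 genes, of which 13 could be tested in apricot and 11 in peach, had 0 members that rose and 9 that fell in A1267 at sepal visible against 800 CH, with a median of -1.52 against 0 over all genes, in a comparison that called 62.7% of all genes. The corresponding counts were 0 and 9 in A1956 against 400 CH (median -1.19, against 0.04 over all genes, 47.2% called) and 0 and 8 in A2137 (median -1.08, against 0.02, 37.3% called). In A660 against 800 CH, 2 rose and 6 fell, with a median of -0.28 against 0.03 over all genes (56.3% called). In A2137 flowers against petal visible, 7 B3 genes rose and 0 fell (median 0.93, against 0.03), a share close to the 55.6% of all genes called there. In peach, 1 rose and 0 fell in A318 and 2 rose and 0 fell in A323 at 600 CH against 100 CH, where 12.6% and 13.5% of all genes were called. At pre-bloom against 1000 CH, 0 rose and 2 fell in each, where 25.7% of all genes were called in A318 and 20.9% in A323. The peach counts at these steps are thus near the background. At 1000 against 600 CH, where VDD fell, 1 rose and 0 fell in A318 (31% of all genes called), and 0 rose and 0 fell in A323 (17.4% called). Among the 11 B3 genes tested in both species, Prupe.8G072800 had r = 0.89 with VDD in apricot and 0.65 in peach, and Prupe.7G143100 had 0.76 and 0.65. Both match VERNALIZATION 1 (VRN1) of Arabidopsis best. By the smaller of both correlations, Prupe.7G223800 (-0.29 and -0.15) and Prupe.8G132600 (0.89 and 0.24) came last, although Prupe.8G132600 was close to VDD in apricot.

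The 16 MADS and ovule genes, 13 testable in apricot and 11 in peach, moved in both directions. At sepal visible against the dormant buds before it, 4 rose and 7 fell in A1267 (median -1.20, against 0 over all genes, 62.7% of which were called). In A1956, 5 rose and 7 fell (median -1.27, 47.2% of all genes called), in A2137 1 rose and 4 fell (median -0.27, 37.3% called), and in A660 5 rose and 8 fell (median -0.89, 56.3% called). In high chill peach at 600 CH against 100 CH, 2 rose and 1 fell in A318 (12.6% of all genes called) and 3 rose and 0 fell in A323 (13.5% called).

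By the smaller of its correlations with VDD over the apricot and the peach groups, 5 of the 21046 genes tested in both species were named as most alike. Prupe.2G329200, whose best Arabidopsis hit is GROWTH-REGULATING FACTOR 5, had r = 0.93 in apricot and 0.87 in peach. Prupe.1G025500 had 0.87 in apricot and 0.87 in peach, and Prupe.6G306300, a RING/U-box gene, had 0.86 and 0.87. Prupe.4G242400 had 0.86 in apricot and 0.85 in peach, and Prupe.4G275500, whose best hit is a DNA topoisomerase gene, had 0.87 and 0.84. Points share genotypes and libraries, so these values describe a likeness of pattern. By rank correlation the same 5 genes stood between place 6 and place 57, and none of them was among the first 5.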

How the data were processed

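VDD was measured by RNA-seq in 60 apricot and 69 peach libraries. The deposited values are raw read counts per gene made by the authors: reads of 50 bases (apricot, single-end) or 150 bases (peach, paired-end, with ribosomal RNA reads removed) were trimmed with skewer, aligned with STAR 2.5.3a to Prunus persica v2.0 and counted with HTSeq. The paper reports marked ribosomal RNA contamination in a majority of the peach libraries. It found the ribosomal share a significant factor in transcriptome variation, without a significant interaction with genotype or time point. The part of this contamination in the VDD levels was not tested. The strand setting is not given in the sources used here. Apricot reads were mapped to the peach genome, so levels should not be compared between the species, and each species was fitted alone.

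From the counts, edgeR 4.0.16 in R 4.3.3 filtered genes (at least 10 counts in enough libraries and 15 in all), scaled by TMM and fitted groups of genotype and time with all libraries of a species, or groups of bloom class and time. Quasi-likelihood F tests against no change used the trended dispersion, with Benjamini-Hochberg adjustment over all tested genes and a threshold of 0.05. Of 50 comparisons, 42 were tested and 8 only described. The scripts were tested on simulated data. Depth sets the precision: 3 counts is taken as the floor. Groups come from the labels. Every pair of replicates differed by more than sampling noise (smallest chi-square per gene 6.85 in apricot and 2.94 in peach).

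VDD was fixed by its identifier. Other genes named are STK, AG, INO, AGL80 and AP3, the pair of B3 genes most and the pair least like VDD, the 5 genes with the highest smaller correlation with VDD in both species (log2 CPM with a prior count of 2), and tapetum markers. The gene and these lists were chosen with earlier results of these data known. The labels do not say whether a replicate number follows a single tree. Every same-numbered pair correlated above 0.1 only for A660 at 800 against 400 CH (0.12 to 0.36) and for A1956 at 100 against 0 CH (0.104, from 2 libraries a group). Alternatives were DESeq2 1.42.0 size factors or Wald test, no filter, the replicate block, compared libraries alone, no shallow libraries, and each library left out. Leaving out each genotype was chosen after seeing the data and used groups of genotype and time.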

Additional observations from a re-analysis of the deposited data

Results flagged for a closer look

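VDD had 4.68 CPM in A323 replicate 2 at 100 CH, while the other 3 libraries of the group had 3.59 to 3.69 CPM, which made it stand far from the others in its group. This was 1 of 15 groups tested, and chance marks about 1 in 20. At 400 against 100 CH all 3 libraries of A1267 were higher and both libraries of A2137 were lower, so the steps differed by 1.30 on the log2 scale, and the difference was not tested.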

How the results depend on the processing

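Of the 17 calls of VDD, 6 held under every alternative run: A1267 at 800 against 400 CH and at sepal visible against 800 CH, sepal visible against 400 CH in A1956 and in A2137, A318 at pre-bloom against 1000 CH and A323 at 1000 against 600 CH. The cause of the other losses was not tested. For A660 at sepal visible against 800 CH the change was 0.68 with DESeq2 size factors (adjusted p = 0.0527), 0.68 by DESeq2's Wald test (0.0735) and 0.66 with the compared libraries alone (0.173), and 0.54 to 1.12 with 1 library left out. For A660 at petal against sepal visible it was -0.76 by the Wald test (0.0559) and -0.82 with the compared libraries alone (0.0842), and -1.19 to -0.57 with 1 library left out. For A2137 flowers against petal visible it was 0.59 with DESeq2 size factors (0.0509), 0.61 without the filter (0.0508) and 0.60 by the Wald test (0.0518), and 0.49 to 0.70 with 1 library left out. For A340 at pre-bloom against 600 CH it was -1.53 with the replicate block (0.0668), -1.38 without the shallow libraries (0.193) and -1.59 with the compared libraries alone (0.1), and -2.14 to -1.13 with 1 library left out. For early against late trees at 400 CH it was -1.20 with the replicate block (0.056) and -1.23 with the compared libraries alone (0.0569). With 1 library left out the ranges were -1.57 to -1.06 for early against late at 400 CH, -1.08 to -0.47 at 800 CH, 1.53 to 2.09 for A318 at 600 against 100 CH, -2.18 to -1.57 for A318 at 1000 against 600 CH, 1.23 to 2.07 for A323 at 600 against 100 CH, -1.90 to -1.51 for A323 at pre-bloom against 1000 CH, and 0.995 to 1.96 for A2137 against A1956 flowers. At 800 CH the early against late difference passed the threshold without any 1 of the 3 A660 libraries, and with groups by genotype and time point it was -0.57 (0.0247).

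Leaving out a genotype was chosen after seeing the data. The values without a genotype come from groups by genotype and time point, whereas the main class comparisons used groups by class and time. The estimate of spread thus changed together with the set of genotypes, so these p-values are not like for like with the main ones. Early against late at 100 CH was -0.66 without A1956 (0.0198) and -0.76 without A660 (0.00447). At 0 CH it turned to -0.08 without A1956 (1) and -0.26 without A660 (0.851). At 800 CH it turned to 0.80 without A1267 (0.0192) and to 0.10 without A1956 (0.718), and was -1.24 without A2137 (0.00104) and -1.94 without A660 (1.37e-09). At sepal visible it was 0.97 without A1956 (0.00119) and 0.79 without A660 (0.0218), but turned to -0.54 without A2137 (0.243) and to -0.36 without A1267 (0.341), and at petal visible 1.15 without A1956 (0.00049) and 0.82 without A660 (0.0329). Low against high chill at pre-bloom was 0.43 without A209 (0.626) and 1.18 without A318 (0.107). Of the 5 genes most like VDD, 0 were shared under Spearman correlation and 3 with a prior count of 0.5. Over all steps the same-number correlations were -0.11 to 0.36 in apricot and -0.23 to 0.24 in peach. Every same-numbered pair correlated above 0.1 only for A660 at 800 against 400 CH and A1956 at 100 against 0 CH, and the block changed no call other than those given. For A1956 flowers against petal visible, 5579 of 22472 genes were called, 5975 with the block and 5996 with crossed numbers. With the compared libraries alone, A318 against A323 at 1000 CH and low against high chill at pre-bloom gave no value, because VDD did not pass the filter. Depth limits the peach results, since 10 libraries held at most 3 counts of VDD.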
